A study of Mus musculus with 6 samples.

Results

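The transcripts described here are 40 genes of DNA replication and mitosis in the mouse colon, read from a table of 43432 gene identifiers. They were taken by name, with earlier results of these data known. Of these, 17 act in DNA replication or its start, and 10 of the 17 (Mcm2 to Mcm7, Pcna, Tyms, Rrm1 and Rrm2) are called the core replication genes. The other 23 act in mitosis. All 40 matched 1 identifier each, and all passed the filter on low counts, which left 16119 genes. Colon RNA came from wild-type mice in 2 groups of 3, with 1 poly(A) RNA library per mouse. The stressed mice (10, 11 and 13) were restrained for 30 min in each of 3 episodes over 3 days, and colon was dissected straight after the last. The resting mice (15, 17 and 19) are the group they are set against; because their records repeat the restraint note, the grouping follows the treatment label. Age and handling of either group are not stated there. Library totals were between 16425525 and 19819267 counts. Epithelial RNA was abundant. Together 10 pan-epithelial genes took 13311 to 13858 CPM (library-scaled counts) in stressed mice and 12025 to 14317 CPM in resting mice.

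In the colon, division takes place mainly in the lower crypt, where stem cells and transit amplifying cells copy their DNA and divide before their daughters differentiate on the way to the surface. Replication genes are switched on as cells enter S phase, mainly through E2F transcription factors. Mitotic genes follow in G2 and M phase, when the MuvB complex with B-Myb and FoxM1 acts at their promoters through a short element known as the CHR (cell cycle genes homology region), often beside CCAAT boxes bound by NF-Y. The MCM proteins form the helicase loaded at origins, the nucleotide enzymes supply DNA precursors, and cyclin B with Cdk1 drives entry into mitosis. These transcripts come from a small share of the cells of a colon sample.

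None of the 40 genes passed the test over all genes. Their smallest adjusted p was 0.559 (edgeR's quasi-likelihood test with Benjamini-Hochberg adjustment over 16119 genes), where 5 genes, or 0.031%, passed in all. Log2 fold changes, stressed over resting, were above 0 for 37 of 40, with a median of 0.25, whereas 49% of all genes tested lay above 0 with a median of -0.0033. An unadjusted p under 0.05 was reached by 11 of 40, all with the higher level in stressed mice, against a background of 3.52% of all genes in that direction. Groups did not overlap for 7 of 40, again with all stressed mice above all resting mice, and 6.13% of all genes did so. None of the 40 was lower in stressed mice by the unadjusted p or without overlap, for which the backgrounds were 3.41% and 6.58%. The 40 genes come from the same 6 libraries, so these counts are not 40 separate observations. The genes were also chosen with earlier results of these data known, so the background shares do not make these counts a test. In a bulk sample more dividing cells and more of each RNA per dividing cell cannot be told apart.

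The median log2 fold change was larger among mitosis genes than among replication genes, although the gap between the classes overlapped between stressed and resting mice. Over all genes tested, 3.52% had an unadjusted p under 0.05 with the higher level in stressed mice. The 23 mitosis genes all lay above 0 on the log2 fold change scale (median 0.31, range 0.0083 to 0.52), and 9 (39.1%) had an unadjusted p under 0.05. Of 17 replication genes, 14 were above 0, with a median of 0.13 and a range of -0.095 to 0.33, and 2 (11.8%) had an unadjusted p under 0.05. By overlap the order of the classes was the other way. All stressed mice lay above all resting mice for 3 of 23 mitosis genes (13%) and 4 of 17 replication genes (23.5%). The share of all genes was 6.13%. For the core replication genes the median was 0.15, and for Mcm2 to Mcm7 it was 0.12, with 4 of 6 above 0 and none at an unadjusted p under 0.05. The upper ends of the 95% intervals reached at most 0.91 among mitosis genes and 0.64 among replication genes, so a doubling lay outside the interval of each of the 40 genes.

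**Figure D1:**
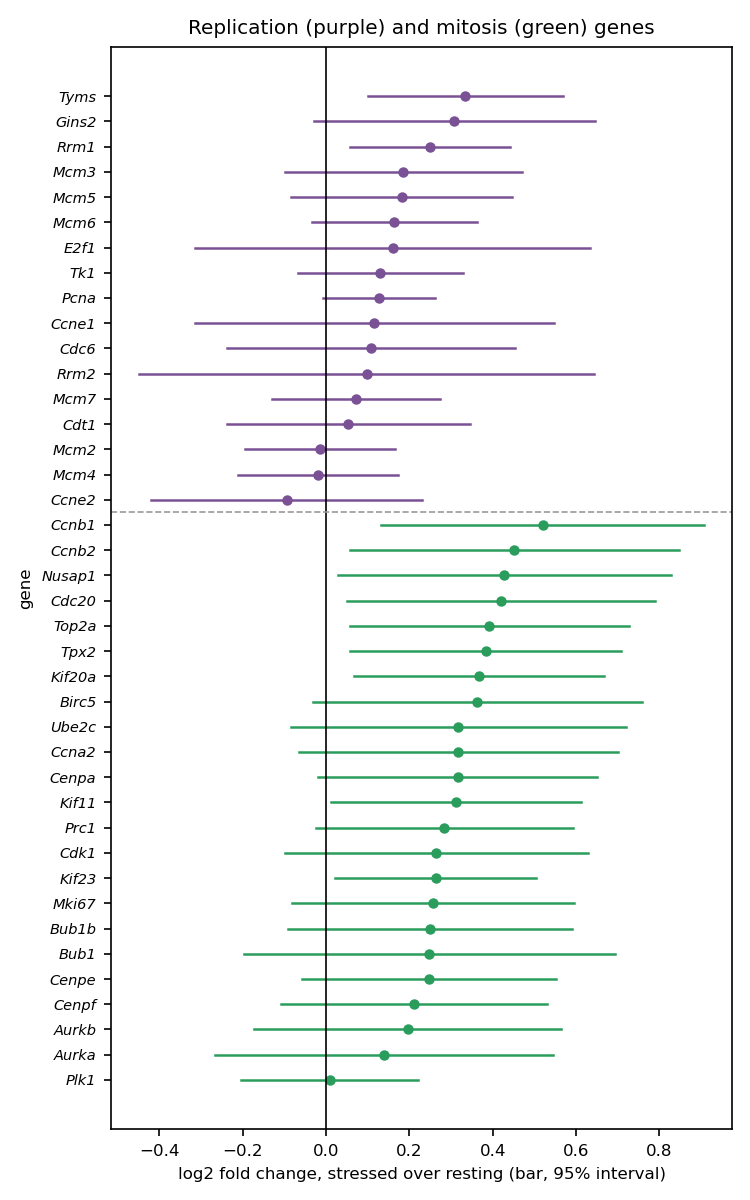
Log2 fold change, stressed over resting, for each gene (point) with its 95% interval (bar), on a log2 axis; 17 replication genes in purple above the dashed line and 23 mitosis genes in green below it, each ordered by fold change. Mitosis genes run from Ccnb1 at 0.52 to Plk1 at 0.0083, and replication genes from Tyms at 0.33 to Ccne2 at -0.095.

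Promoters of 3 genes of each class are shown because they hold, or lack, the elements described above. RefSeq promoters of the GRCm38.p6 build, 250 bases before to 50 bases after a start, were found for 33 of the 40 genes. In the sequences below, capitals mark the CHR (TTTGAA), its variant TTTAAA, the CCAAT box (CCAAT or ATTGG) and matches to an E2F element, spelled TTGGCGC or else TTCCCGC, and further TTCGCGC or else TTGCCGC, each searched on both strands; an E2F match and a CCAAT box overlap in Ccnb1, and 2 E2F matches overlap in Mcm5. The 3 mitosis promoters come first, cyclin B1 (chr13:100786437-100786736, minus strand), cyclin B2 (chr9:70421505-70421804, minus strand) and their kinase Cdk1 (chr10:69352863-69353162, minus strand), each written 5′ to 3′ on the strand of the gene.
Ccnb1: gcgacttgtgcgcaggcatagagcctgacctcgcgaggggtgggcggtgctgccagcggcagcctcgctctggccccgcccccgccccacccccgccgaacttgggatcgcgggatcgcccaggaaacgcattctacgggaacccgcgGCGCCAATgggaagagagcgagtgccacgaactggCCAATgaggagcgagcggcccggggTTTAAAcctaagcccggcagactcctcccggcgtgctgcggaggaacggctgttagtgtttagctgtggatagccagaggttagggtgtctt
Ccnb2: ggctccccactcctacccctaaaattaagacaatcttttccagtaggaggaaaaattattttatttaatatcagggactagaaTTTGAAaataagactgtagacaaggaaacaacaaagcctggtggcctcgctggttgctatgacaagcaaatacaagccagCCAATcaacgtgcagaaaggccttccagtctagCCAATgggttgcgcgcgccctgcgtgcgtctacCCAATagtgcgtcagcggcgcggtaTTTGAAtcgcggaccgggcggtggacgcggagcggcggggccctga
Cdk1: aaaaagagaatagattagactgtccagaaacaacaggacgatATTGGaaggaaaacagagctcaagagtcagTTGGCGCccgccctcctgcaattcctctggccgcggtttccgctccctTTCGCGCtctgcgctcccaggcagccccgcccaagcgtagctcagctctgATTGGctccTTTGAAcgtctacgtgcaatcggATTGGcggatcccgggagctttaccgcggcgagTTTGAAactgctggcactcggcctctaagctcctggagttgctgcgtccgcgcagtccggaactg
The replication promoters are those of the helicase subunit Mcm5 (chr8:75109259-75109558, plus strand), the replication clamp Pcna (chr2:132253131-132253430, minus strand) and thymidylate synthase Tyms (chr5:30073576-30073875, minus strand).
Mcm5: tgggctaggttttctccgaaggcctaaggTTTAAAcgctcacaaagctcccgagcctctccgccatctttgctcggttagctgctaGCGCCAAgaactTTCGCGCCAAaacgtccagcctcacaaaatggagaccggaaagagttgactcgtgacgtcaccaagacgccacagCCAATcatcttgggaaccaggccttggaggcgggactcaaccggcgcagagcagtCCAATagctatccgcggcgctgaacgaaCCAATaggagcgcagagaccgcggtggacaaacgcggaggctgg
Pcna: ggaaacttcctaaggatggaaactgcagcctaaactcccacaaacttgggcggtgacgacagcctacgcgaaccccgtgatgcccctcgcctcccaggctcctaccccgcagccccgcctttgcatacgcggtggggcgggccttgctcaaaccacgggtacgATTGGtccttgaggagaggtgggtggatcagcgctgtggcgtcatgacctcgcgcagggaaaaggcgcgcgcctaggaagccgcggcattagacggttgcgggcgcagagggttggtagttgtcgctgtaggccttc
Tyms: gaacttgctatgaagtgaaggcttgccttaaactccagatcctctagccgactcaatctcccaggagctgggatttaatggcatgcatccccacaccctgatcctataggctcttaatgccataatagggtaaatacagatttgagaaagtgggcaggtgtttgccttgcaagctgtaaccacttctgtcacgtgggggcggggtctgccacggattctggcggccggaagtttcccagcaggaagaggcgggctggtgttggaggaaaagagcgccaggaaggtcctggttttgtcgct
The Cdk1 window holds 2 CHR matches, of which the nearer begins 15 bases before the start, together with 3 CCAAT boxes and 2 E2F matches. The Ccnb2 window also holds 2 CHR matches and 3 CCAAT boxes, and the Ccnb1 window 1 TTTAAA, 2 CCAAT boxes and 1 E2F match. Mcm5 has 3 E2F matches, 3 CCAAT boxes and 1 TTTAAA but no TTTGAA. Pcna has 1 CCAAT box, and the Tyms window holds none of these letters.

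The CHR letters TTTGAA stood in 14 of 19 mitosis promoters (73.7%), in 1 of 14 replication promoters (7.14%) and in 17.9% of all 32851 promoters of the same length. TTTGAA together with a CCAAT box stood in 14 of 19 mitosis promoters (73.7%), 1 of 14 replication promoters (7.14%) and 6.95% of all promoters. CCAAT boxes with or without a CHR stood in 17 of 19 mitosis promoters (89.5%), 8 of 14 replication promoters (57.1%) and 37.4% of all promoters. E2F matches stood in 3 of 19 mitosis promoters (15.8%), 8 of 14 replication promoters (57.1%) and 9.57% of all promoters. The variant TTTAAA was found in 7 of 19 mitosis and 4 of 14 replication promoters, against 13.2% of all, and was added to the search after the Ccnb1 sequence had been seen. A match describes the letters of a window and does not show that a factor binds there.

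Among the 3 genes of the cyclin B and Cdk1 kinase, Ccnb1 (mm10 chromosome 13, 100778650 to 100786570, minus strand) had the largest log2 fold change of the 40 genes. Ccnb1 stood at 24.6, 29.0 and 26.5 CPM in the stressed mice 10, 11 and 13, against 18.6, 13.2 and 23.9 CPM in resting mice 15, 17 and 19. All stressed values lay above all resting values, although resting mouse 19 came within 1 CPM of stressed mouse 10. The log2 fold change was 0.52 ± 0.17 (SE; edgeR adjusted p = 0.589). With no filter on low counts its edgeR adjusted p was 0.0398. That fit passed 151 of 25666 genes, against 5 of 16119 in the reported fit. Ccnb2 was at 24.7, 34.4 and 29.8 CPM in the stressed mice and at 22.2, 15.7 and 27.0 CPM in resting mice (0.45 ± 0.18). Its groups overlapped, because resting mouse 19 lay above stressed mouse 10. The kinase subunit gene Cdk1 was at 27.4, 35.7 and 26.2 CPM in the stressed mice and at 24.9, 19.1 and 30.3 CPM in resting mice, for a log2 fold change of 0.26 ± 0.16. Ccna2, the cyclin A2 gene that acts from S phase into mitosis, had a log2 fold change of 0.32 ± 0.17 and likewise overlapped.

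The 6 genes of the spindle and its midzone had log2 fold changes between 0.26 and 0.43, and 5 of them an unadjusted p under 0.05 with the higher level in stressed mice, as 3.52% of all genes had. Over all 40 genes that count ran from 2 to 24 with a mouse left out, at backgrounds of 2.59% to 4.15% of all genes. Kif20a and Kif23 encode kinesins of the midzone, where cytokinesis is prepared. Kif20a was at 12.1, 12.9 and 10.998 CPM in the stressed mice and at 9.21, 8.10 and 10.6 CPM in resting mice. Kif23 was at 33.8, 39.1 and 33.8 CPM in the stressed mice and at 31.1, 25.013 and 32.8 CPM in resting mice. For both kinesins the groups did not overlap, with log2 fold changes of 0.37 ± 0.14 and 0.26 ± 0.11 (edgeR adjusted p = 0.634 and 0.671). Tpx2, which activates Aurora A on spindle microtubules, was at 24.4, 32.3 and 23.8 CPM in the stressed mice and at 20.5, 17.1 and 24.0 CPM in resting mice. Nusap1, which bundles spindle microtubules, was at 24.8, 33.3 and 23.2 CPM in the stressed mice and at 20.7, 15.03 and 24.7 CPM in resting mice. In Tpx2 and Nusap1 stressed mouse 11 was the highest of all mice, and stressed mouse 13 lay below resting mouse 19. Kif11, the motor that pushes spindle poles apart, was at 33.1, 42.1 and 37.1 CPM in the stressed mice and at 27.3, 26.1 and 37.0 CPM in resting mice. Prc1, a crosslinker of midzone microtubules, was at 29.9, 37.1 and 30.4 CPM in the stressed mice and at 27.6, 21.1 and 31.3 CPM in resting mice. Both again had resting mouse 19 inside the range of the stressed mice.

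Top2a, Cdc20, Birc5, Cenpa and Mki67, which act on chromosomes or at the exit from mitosis, all had their lowest value in resting mouse 17. Top2a, the topoisomerase that untangles replicated chromosomes, was at 100.3, 123 and 125 CPM in the stressed mice and at 89.0, 66.9 and 109 CPM in resting mice (log2 fold change 0.39 ± 0.15, edgeR adjusted p = 0.646). Cdc20, the activator of the anaphase promoting complex, was at 26.4, 34.3 and 31.3 CPM in the stressed mice and at 22.7, 17.1 and 28.9 CPM in resting mice (0.42 ± 0.17). In each of them resting mouse 19 overlapped the stressed mice while mice 15 and 17 lay below all of these. Birc5, the survivin gene of the chromosomal passenger complex, was at 24.6, 31.3 and 23.9 CPM in the stressed mice and at 21.8, 14.7 and 25.5 CPM in resting mice (0.36 ± 0.18). Cenpa, the centromeric histone H3 variant, was at 22.6, 28.6 and 22.7 CPM in the stressed mice and at 18.95, 16.1 and 24.3 CPM in resting mice (0.32 ± 0.15). Ube2c, the ubiquitin-conjugating enzyme of the same anaphase complex, had 0.32, and Mki67, which coats mitotic chromosomes and is the usual label of cycling cells, had 0.26 ± 0.15. Mki67 was at 163, 195 and 191 CPM in the stressed mice and at 149, 117 and 193 CPM in resting mice, so that resting mouse 19 was nearly level with the highest stressed mouse. The checkpoint kinase genes Bub1 and Bub1b, the kinetochore motor Cenpe and its partner Cenpf, and the Aurora kinase genes Aurkb and Aurka had log2 fold changes between 0.14 and 0.25, each with overlapping groups.

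**Figure D2:**
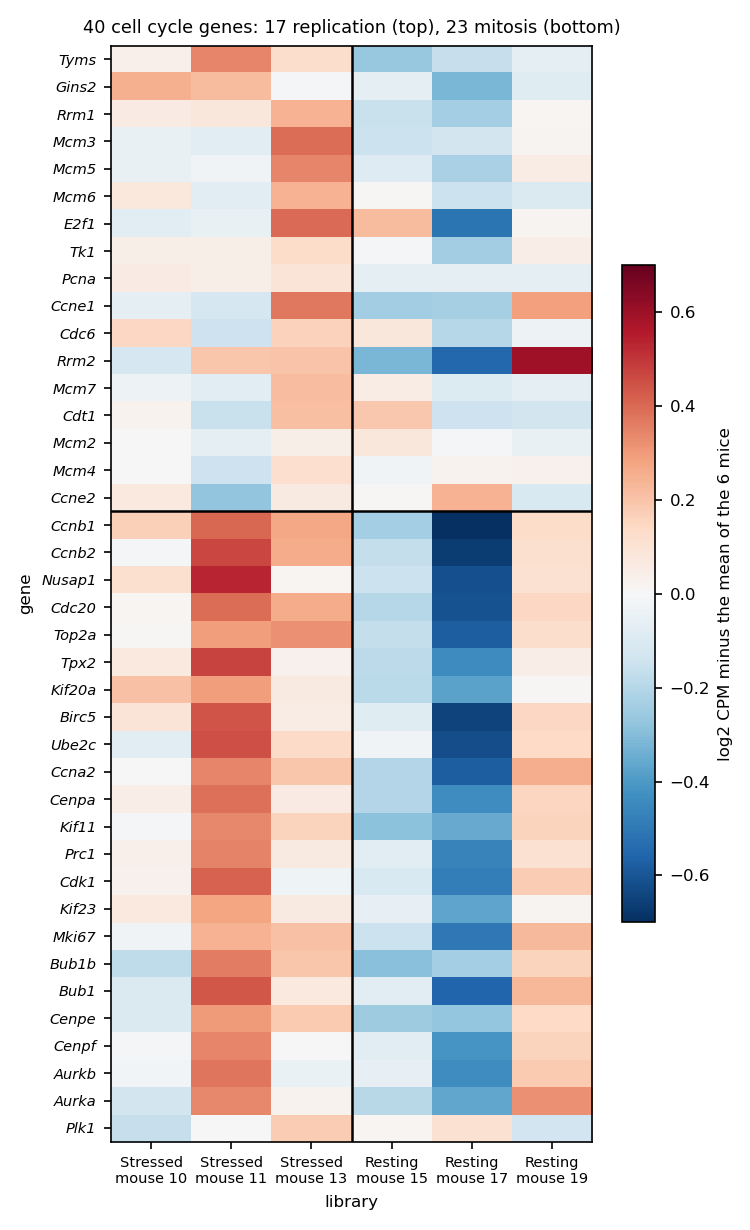
Log2 CPM of each gene minus its mean over the 6 mice (colour), with stressed mice left of the vertical line and resting mice right of it, 17 replication genes above the horizontal line and 23 mitosis genes below it. Among mitosis genes stressed mouse 11 is the highest in 21 of 23 and resting mouse 17 the lowest in 21 of 23, and Plk1 at the bottom has another pattern.

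Plk1, the Polo-like kinase of mitotic entry, departed from the other mitosis genes. It was at 102, 114 and 129 CPM in the stressed mice and at 115, 123 and 104 CPM in resting mice, a log2 fold change of 0.0083 ± 0.096. Resting mouse 17, the lowest mouse for 21 of 23 mitosis genes, was the second highest for Plk1. Per length, Plk1 had the highest level of the 40 genes, at 52.2 CPM per kb of annotated exon in stressed and 51.8 CPM per kb in resting mice, followed by Pcna at 36.2 CPM per kb in stressed and 33.2 CPM per kb in resting mice. Cdk1 had 6.03 CPM per kb in stressed and 5.02 CPM per kb in resting mice. In mm10 Plk1 lies on chromosome 7 from 122159439 to 122169873, and 19 bases separate its end from that of Ern2, a stress sensor gene of mucus-secreting epithelium on the opposite strand. Ern2 was at 66.0, 64.5 and 98.5 CPM in the stressed mice and at 79.4, 102 and 75.9 CPM in resting mice. Stressed mouse 13 and resting mouse 17 were thus the highest of their groups in both genes. Whether reads of Ern2 were counted for Plk1 was not tested; the library kit keeps strand, but the setting used in counting is unknown. Another 9 of the 40 genes are overlapped on the opposite strand by a gene above 1 CPM, such as Cdc20 by Elovl1 and Mcm7 by Cops6. Without Plk1, left out after its values were seen, the median of the mitosis genes was 0.31 as well.

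The MCM helicase genes differed little between the groups. Mcm6 was at 60.3, 54.4 and 68.1 CPM in the stressed mice and at 57.8, 51.8 and 53.5 CPM in resting mice (log2 fold change 0.16 ± 0.089). Mcm3 was at 23.6, 23.2 and 32.2 CPM in the stressed mice and at 22.1, 22.4 and 24.8 CPM in resting mice (0.19 ± 0.13). Mcm5 was at 27.1, 27.6 and 35.7 CPM in the stressed mice and at 26.4, 24.0 and 29.2 CPM in resting mice (0.18 ± 0.12). In these 3 genes stressed mouse 13 was the highest and the other stressed mice lay close to the resting ones. Mcm7 was at 39.3, 38.0 and 46.8 CPM in the stressed mice and at 41.7, 37.7 and 38.5 CPM in resting mice. Mcm4 was at 28.6, 25.9 and 31.1 CPM in the stressed mice and at 28.2, 29.2 and 29.3 CPM in resting mice. Mcm2 was at 26.3, 25.2 and 27.1 CPM in the stressed mice and at 27.9, 26.2 and 25.4 CPM in resting mice. The log2 fold changes of Mcm7, Mcm4 and Mcm2 were 0.072, -0.019 and -0.015, and their 95% intervals together spanned -0.21 to 0.27. Without stressed mouse 13 the Mcm7 value was -0.025.

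Tyms and Rrm1 were the 2 replication genes with an unadjusted p under 0.05. Tyms, which makes thymidylate (mm10 chromosome 5, 30058202 to 30073617, minus strand), was at 22.6, 28.0 and 24.0 CPM in the stressed mice and at 18.4, 19.7 and 21.0 CPM in resting mice, and had the smallest p of the 40 genes (log2 fold change 0.33 ± 0.11, edgeR adjusted p = 0.559, unadjusted 0.00957). Rrm1, the large subunit of ribonucleotide reductase, was at 45.8, 46.5 and 52.2 CPM in the stressed mice and at 39.6, 37.3 and 44.5 CPM in resting mice (0.25 ± 0.087, edgeR adjusted p = 0.59). Neither gene had overlapping groups. Rrm2, the small subunit whose supply rises in S phase, was at 16.001, 19.9 and 19.9 CPM in the stressed mice and at 13.9, 11.9 and 26.2 CPM in resting mice. Here resting mouse 19 was the highest of all 6, and the log2 fold change was 0.10 ± 0.25. Pcna, the sliding clamp of the polymerases, was at 86.6, 85.7 and 88.6 CPM in the stressed mice and at 79.6, 79.7 and 79.6 CPM in resting mice. Its groups did not overlap (log2 fold change 0.13 ± 0.061, edgeR adjusted p = 0.736), but the resting values lay closer to one another, with an SD of 0.0878 CPM, than the 2.15 CPM that comes from counting alone.

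Among the other replication genes, Gins2 was the 1 whose groups did not overlap. Gins2, a subunit of the active helicase, was at 8.0004, 7.85 and 6.68 CPM in the stressed mice and at 6.46, 5.40 and 6.36 CPM in resting mice (log2 fold change 0.31 ± 0.15, edgeR adjusted p = 0.736). Tk1, the salvage thymidine kinase, was at 33.4, 33.4 and 35.5 CPM in the stressed mice and at 32.3, 27.5 and 33.6 CPM in resting mice. The licensing factor Cdc6, at 7.38, 6.05 and 7.47 CPM in stressed mice and 7.05, 5.81 and 6.52 CPM in resting mice, had overlapping groups, as did Tk1. E2f1, the S phase transcription factor, was at 5.80, 5.88 and 8.02 CPM in the stressed mice and at 7.11, 4.29 and 6.19 CPM in resting mice. Cdt1, which loads the MCM helicase with Cdc6, and the cyclin E genes Ccne1 and Ccne2, which start S phase, had log2 fold changes of 0.053, 0.12 and -0.095. All of these overlapped between the groups.

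**Figure D3:**
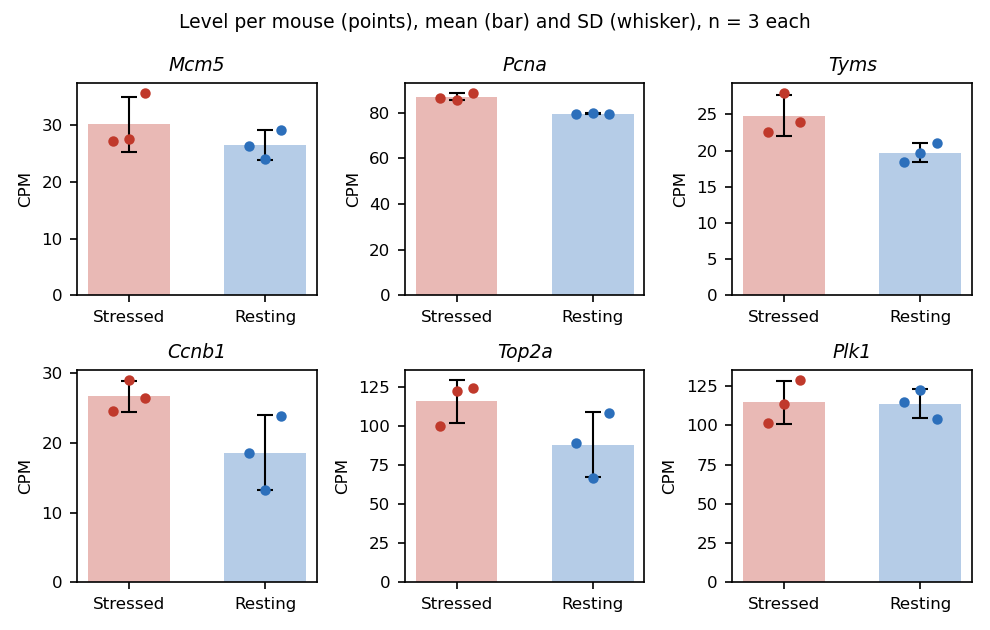
CPM per mouse (points), with the group mean (bar from 0) and SD (whisker), n = 3 each, for 3 replication genes (Mcm5, Pcna, Tyms) and 3 mitosis genes (Ccnb1, Top2a, Plk1). Pcna, Tyms and Ccnb1 have all stressed mice above all resting mice, and Mcm5, Top2a and Plk1 overlap.

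Mice were ordered differently by the replication and the mitosis genes. As the mean log2 CPM of a class relative to the average of the 6 mice, the mitosis class stood at 0.00047, 0.36 and 0.12 in stressed mice 10, 11 and 13 and at -0.15, -0.46 and 0.13 in resting mice 15, 17 and 19. The replication class stood at 0.020, -0.017 and 0.19 in stressed mice and at -0.044, -0.17 and 0.021 in resting mice. Stressed mouse 11 was thus the top mouse for mitosis and in the middle for replication, stressed mouse 13 was the top mouse for replication, and resting mouse 17 was last in both. For Mcm2 to Mcm7 stressed mouse 13 stood at 0.23 and the other 5 mice between -0.096 and -0.012. Gene by gene, stressed mouse 11 was the highest in 21 of 23 mitosis genes and 1 of 17 replication genes, and stressed mouse 13 in 2 of 23 and 12 of 17.

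The mitosis level minus the replication level was -0.020, 0.37 and -0.076 in stressed mice and -0.10, -0.29 and 0.11 in resting mice. Its mean was 0.093 ± 0.25 in stressed mice and -0.093 ± 0.20 in resting mice (SD, n = 3 each), and the groups overlapped, with resting mouse 19 above stressed mice 10 and 13. The gap between the class fold changes, a mean of 0.18 on the log2 scale, was therefore smaller than the spread of this difference between mice. Mitosis genes also varied more within a group. Their median SD between mice of 1 group was 0.28 on the log2 scale, against 0.14 for replication genes, 0.13 for Mcm2 to Mcm7 and 0.11 for the 9923 genes tested in the same range of mean counts. Counting error alone gave 0.068 for mitosis genes and 0.069 for replication genes.

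**Figure D4:**
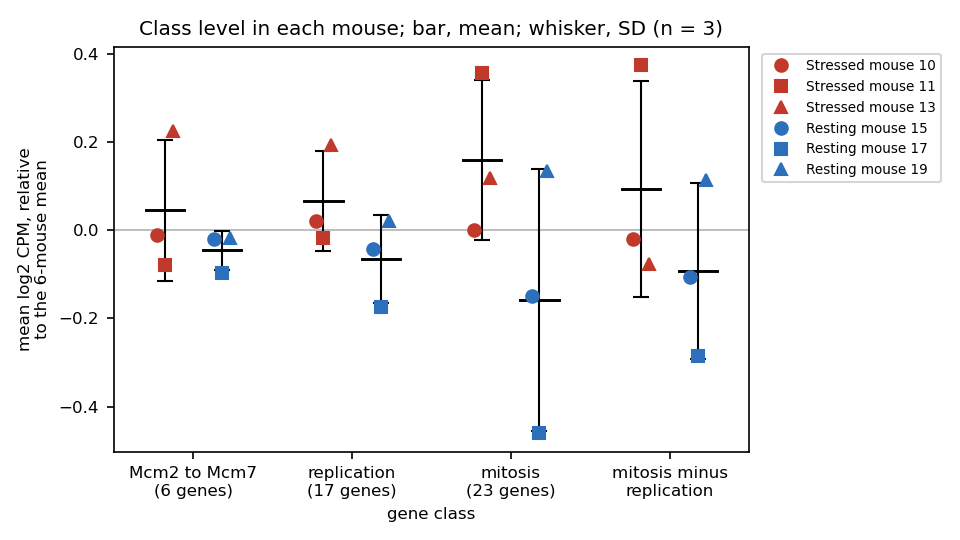
Mean log2 CPM of each class in each mouse, relative to the average of the 6 mice, with group means (bars) and SD (whiskers), n = 3 each, stressed in red left of resting in blue. Resting mouse 19 lies at 0.13 for mitosis, above stressed mice 13 and 10 at 0.12 and 0.00047, and stressed mouse 13 leads the replication class at 0.19.

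The count of genes at an unadjusted p under 0.05 ran from 2 to 24 when 1 mouse was left out, and resting mice 17 and 19 gave these ends. At least 1 stressed mouse was above resting mouse 19 in 39 of 40 genes, but all 3 were above it in 8, of which 3 were mitosis genes. The same counts were not taken over all genes tested, so they have no background here and describe the 40 genes only. Without mouse 19, 24 of 40 genes had an unadjusted p under 0.05 with the higher level in stressed mice, at a background of 4.14%, the median of the mitosis genes was 0.47, and the smallest adjusted p of the 40 was 0.185. Without resting mouse 17, the lowest mouse, 2 of 40 did so, at a background of 3.43%, and the median of the mitosis genes was 0.17. The count was 3 without resting mouse 15, 4 without stressed mouse 11, 7 without stressed mouse 13 and 14 without stressed mouse 10, at backgrounds of 2.59% to 4.15%. None of the 40 genes passed the adjusted threshold in any of these 6 fits.

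Other genes of the same machinery, from lists that hold none of the 40, lay mostly in the same direction. They were read from the same 6 libraries, and the lists were chosen with earlier results of these data known. Their direction is therefore not separate support. Of 56 other mitosis genes, 54 were above 0 with a median of 0.24, none passed over all genes, and 10 (17.9%) had an unadjusted p under 0.05, all higher in stressed mice, against 3.52% of all genes. Spc24, a subunit of the kinetochore complex that holds microtubules, was at 12.4, 14.0 and 13.1 CPM in the stressed mice and at 10.1, 7.81 and 11.3 CPM in resting mice (log2 fold change 0.43 ± 0.15, edgeR adjusted p = 0.589). Melk, a kinase of dividing cells, was at 17.6, 19.7 and 16.6 CPM in the stressed mice and at 13.5, 8.81 and 16.8 CPM in resting mice, and the centromere genes Oip5 and Cenpm had 0.64 ± 0.24 and 0.67 ± 0.26 at levels under 6 CPM. Oip5 overlaps Nusap1 on the opposite strand. Of 43 other replication genes, 34 were above 0 with a median of 0.097, and 1 (2.33%) had an unadjusted p under 0.05 with the higher level in stressed mice, a share below the 3.52% of all genes. That gene was Rpa3, of the complex that coats single-stranded DNA, at 19.4, 21.6 and 17.7 CPM in stressed mice and 17.9, 13.6 and 16.1 CPM in resting mice (0.30 ± 0.13). The clamp loader Rfc2 had 0.16, the polymerase delta subunit Pold1 0.21 and the helicase factor Cdc45 0.33, none past the threshold.

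Genes that drive or brake entry into the cycle had no common direction. Of 12 drivers of G1, 5 were above 0 and 7 below, with a median of -0.021, and none had an unadjusted p under 0.05. Ccnd1, the cyclin D1 gene, was at 71.8, 75.4 and 76.6 CPM in the stressed mice and at 78.6, 74.1 and 89.2 CPM in resting mice, a log2 fold change of -0.11 ± 0.080. Myc was at 25.8, 25.8 and 26.4 CPM in the stressed mice and at 27.0, 24.9 and 25.9 CPM in resting mice (log2 fold change 0.0048). The stressed and resting values of Myc were interleaved. Cdk4, the partner kinase of cyclin D, had 0.070, Skp2, which marks p27 for breakdown, had -0.090, and Mycn had -0.64 ± 0.33 at levels under 4 CPM. Of 21 tested brakes out of 22 listed, 13 were above 0 and 8 below, with a median of 0.048. Among them 1 gene, Gadd45a, had an unadjusted p under 0.05 with the higher level in stressed mice and 1, Rbl2, with the lower level. Each is 1 of 21 tested, near the shares of all genes, 3.52% higher and 3.41% lower. Cdkn1a, the p21 inhibitor gene, was at 308, 211 and 325 CPM in the stressed mice and at 235, 207 and 247 CPM in resting mice (0.29 ± 0.14, edgeR adjusted p = 0.736). Cdkn1b, the p27 gene, had -0.11 and Cdkn1c, the p57 gene, -0.21. Gadd45a, a growth arrest gene, had 0.24 and Rbl2, a pocket protein gene that represses E2F targets, -0.16. In Rbl2 and Cdkn1c all stressed mice lay below all resting mice, as in 6.58% of all genes.

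**Figure D5:**
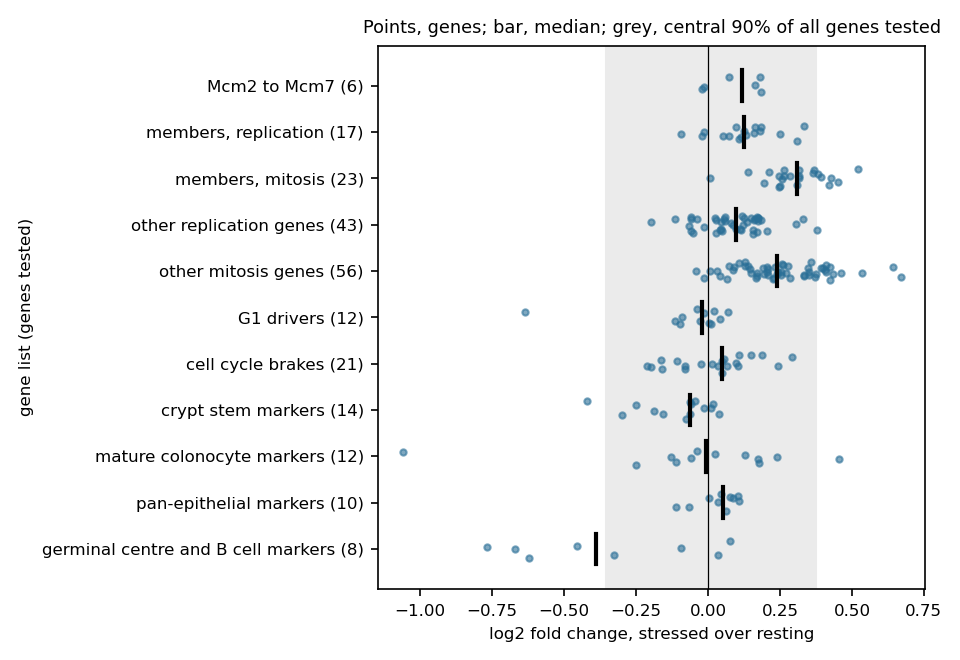
Log2 fold change, stressed over resting, of each gene tested (points) in 11 gene lists, with the list median (bar) and the central 90% of all genes tested (grey, -0.36 to 0.38). Medians are 0.31 for the mitosis genes and 0.24 for other mitosis genes, 0.13 for the replication genes and 0.097 for other replication genes, and -0.062 for crypt stem markers.

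Markers of the tissue's cell types varied between mice as well. Crypt stem markers were above 0 in 3 of 14 cases with a median of -0.062, and their summed level was 1400.05 to 1437 CPM in stressed mice and 1432 to 1527 CPM in resting mice. Lgr5, the crypt stem cell receptor, was at 11.4, 9.43 and 9.90 CPM in the stressed mice and at 11.7, 14.7 and 10.2 CPM in resting mice. Resting mouse 17, with the lowest mitosis level, had the highest sum of crypt stem markers (1527 CPM) and of fibroblast markers (758 CPM), and the lowest sum of pan-epithelial markers (12025 CPM). Resting mouse 19 had the highest sum of pan-epithelial markers, at 14317 CPM. Mature colonocyte markers summed to 25287 to 27364 CPM in stressed mice and to 19417 to 25729 CPM in resting mice, where mouse 19 lay within the range of the stressed mice. Car1, a carbonic anhydrase gene, made up much of that sum, at 12621, 11565 and 13021 CPM in the stressed mice and at 9379, 7441 and 10326 CPM in resting mice. Over the 12 colonocyte markers 6 log2 fold changes were above 0 and 6 below, with a median of -0.0082; the water channel gene Aqp8 had -1.06 and the chloride exchanger gene Slc26a3 -0.25. With the mean log2 level of the pan-epithelial markers as a covariate, 36 of 40 genes were above 0 with a median of 0.18, and 8 had an unadjusted p under 0.05 with the higher level in stressed mice, at a background of 3.59%.

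Lymphoid follicles also hold dividing cells, and their markers were highest in resting mouse 17, the mouse with the lowest mitosis level. Germinal centre and B cell markers summed to 35.4 to 40.6 CPM in stressed mice and to 35.9 to 48.3 CPM in resting mice. Of the 8 tested out of 12 listed, 2 were above 0, with a median of -0.39, and no listed marker was at 0 in all 6 libraries. Cd79a, a part of the B cell receptor, was at 0.718, 1.80 and 0.972 CPM in the stressed mice and at 1.196, 2.82 and 1.94 CPM in resting mice. T cell markers summed to 63.0 to 76.9 CPM in stressed mice and to 61.7 to 71.9 CPM in resting mice. Erythroid markers summed to 30.8 to 37.1 CPM in stressed mice and to 7.91 to 23.8 CPM in resting mice, with all 4 tested of 5 listed above 0, and the 6 adipocyte markers were all above 0 with a median of 0.42. Enteric neuron and glia markers summed to 75.5 to 84.2 CPM in stressed mice and to 59.8 to 74.1 CPM in resting mice, with 7 of 8 above 0. The 6 endothelial markers were all below 0, with a median of -0.18. Goblet cell markers were above 0 in 7 of 10 cases, whereas Atoh1 and Spdef, transcription factors of the secretory lineage, had -0.57 and -0.30. In both, all stressed mice lay below all resting mice, as in 6.58% of all genes. Car1, Aqp8, Slc26a3, Atoh1 and Spdef were chosen after their values were seen, and none passed the adjusted threshold. The part of any of these cell types in the differences was not tested.

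Hoxa genes, whose levels change along the length of the colon, lay in the opposite direction. The 11 Hoxa genes listed summed to 81.6, 60.6 and 44.2 CPM in stressed mice 10, 11 and 13 and to 159, 145 and 68.1 CPM in resting mice 15, 17 and 19. Resting mouse 19 again lay within the range of the stressed mice. All 10 tested Hoxa genes had log2 fold changes below 0, with a median of -0.81, and 8 had an unadjusted p under 0.05. Over all genes tested, 3.41% had one with the lower level in stressed mice. With the mean log2 level of these 10 genes as a covariate, 26 of the 40 cell cycle genes were above 0, of which 16 were mitosis and 10 replication genes, and their median was 0.024. None of the 40 had an unadjusted p under 0.05 with the higher level in stressed mice in that fit, at a background of 2.29%, and 1, Rrm2, had one with the lower level. The score itself was lower in stressed mice (-0.094, -0.38 and -0.92) than in resting mice 15 and 17 (0.83 and 0.805), with resting mouse 19 at -0.25. That fit therefore cannot fully separate score and group. The SE of Tyms was 0.16 there against 0.11 without the score, and that of Mcm2 0.13 against 0.081, while that of Rrm2 fell from 0.25 to 0.19. The part of sampling position in the differences was not tested, since the labels do not give it.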

How the data were processed

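Colon poly(A) RNA was sequenced in 1 stranded library per mouse, per the labels' protocols. The authors deposited raw read counts, whole numbers per Ensembl gene, with no normalization. fastp, HISAT2 and the mm10 build are named in the submitters' processing notes; the read counter, its annotation and its strand setting are not given by any source used here.

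Symbols matched 42462 of 43432 identifiers. Positions and exon lengths came from GENCODE M21 for mm10. Genes were kept by filterByExpr (minimum count 10, minimum total 15), scaled by TMM and tested with edgeR 4.0.16 (R 4.3.3, trended dispersions, quasi-likelihood F test, 6 libraries), with adjusted p under 0.05 as the threshold. SE and 95% intervals come from that fit. Class levels are means of log2 CPM (prior count 2). Alternatives were DESeq2 1.42.0 and its size factors, limma 3.58.1 (voom), no filter, another quasi-likelihood setting, each mouse left out, and a pan-epithelial or Hoxa score (10 genes each) as a covariate. The scripts were tested on simulated data. Values in every mouse are given for the core replication genes, for the 12 mitosis and 4 other replication genes with the smallest p, and, beyond that rule, for Cdk1, Mki67, Plk1, Ern2, Lgr5, Cd79a and Car1, chosen after their values were seen. From each further cell cycle list the 4 genes with the smallest p are named, and Cdkn1a, Cdkn1b, Ccnd1 and Myc whatever their values; of these, Spc24, Melk, Rpa3, Ccnd1, Myc and Cdkn1a were picked for values in every mouse after their values were seen. Members and lists were chosen with earlier results of these data known. Each library is a separate mouse per the labels.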

Additional observations from a re-analysis of the deposited data

How the results depend on the processing

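No paired analysis was possible because the stressed and resting mice share no replicate numbers. The result that none of the 40 genes passed held with DESeq2 size factors, DESeq2 (smallest adjusted p of 0.254), limma-voom, edgeR's bias-adjusted quasi-likelihood, either covariate and each mouse left out. With no filter on low counts 1 gene passed, Ccnb1 (log2 fold change 0.52, edgeR adjusted p = 0.0398). In that fit 20 had an unadjusted p under 0.05 with the higher level in stressed mice, at a background of 3.32% of all genes. The reported fit had 11, at a background of 3.52%. With a mouse left out that count ran from 2 to 24, at backgrounds of 2.59% to 4.15%. With the Hoxa score as a covariate it was 0, at a background of 2.29%. That score was lower in stressed mice than in resting mice 15 and 17, so the fit cannot fully separate it from the group. The number of changed genes among all tested, 5 as reported, was 151 with no filter, 56 with DESeq2, 3 with limma-voom, 10 with the epithelial score, 3 with the Hoxa score and 1 to 14 with a mouse left out. With the Hoxa score the median log2 fold change was 0.017 for replication genes, 0.0059 for core replication genes and 0.037 for mitosis genes; with a mouse left out these medians ran from 0.042 to 0.20, from 0.045 to 0.20 and from 0.17 to 0.47, and the mean difference between mitosis and replication from 0.028 to 0.29. The cause of these moves was not tested. With the Hoxa score the sign turned for Mcm2 (0.017), Mcm3 (-0.091), Mcm5 (-0.097), Mcm7 (-0.0053), Rrm2 (-0.53), Ccne1 (-0.35), Ccne2 (0.023), E2f1 (-0.093), Mki67 (-0.11), Ccna2 (-0.079), Aurka (-0.22), Aurkb (-0.0052), Bub1 (-0.070), Bub1b (-0.090), Cenpe (-0.057) and Myc (-0.0073); with the epithelial score it turned for Rrm2 (-0.024) and Myc (-0.0055). With a mouse left out it turned at least once for Mcm2 (-0.040 to 0.025), Mcm4 (-0.084 to 0.045), Mcm7 (-0.025 to 0.13), Rrm2 (-0.12 to 0.53), Cdt1 (-0.042 to 0.17), Ccne1 (-0.050 to 0.32), Ccne2 (-0.17 to 0.011), E2f1 (-0.022 to 0.32), Plk1 (-0.083 to 0.088), Aurka (-0.0029 to 0.37) and Myc (-0.024 to 0.037). The fits with 5 libraries rest on 2 mice in 1 group. With 3 mice per group the median SE of a log2 fold change was 0.15 among the 40 genes, which limits the size that could be told from 0.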
